A study of Drosophila melanogaster with 2 samples.

Results

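Drosophila eggs are patterned by gene products that the mother supplies, in the oocyte or from the follicle cells around it. Here, 31 of the genes that encode them are described by the binding of the zinc finger protein Sry-delta at their start sites. A list of 32 symbols was used, of which 1, wind, is not a current symbol of the annotation and was dropped. The members fall into 4 groups: 7 posterior and germ plasm genes, 12 dorsoventral genes, 5 terminal genes and 7 regulators of RNA in the oocyte. They were set beside the 13945 protein-coding genes of the 6 main chromosome arms. Binding was measured by chromatin immunoprecipitation followed by sequencing (ChIP-seq) in whole embryos of both sexes, 0 to 24 hours after egg laying, from a transgenic line that stably expresses Sry-delta fused at its C-terminus to green fluorescent protein (GFP). Sonicated chromatin was pulled down with an antibody to GFP. The 2 libraries are biological replicates 3 and 4 of that 1 group, so nothing was treated or mutated and no contrast could be tested. Whole embryos of this age span early patterning to late embryogenesis, while most of the member genes are transcribed in the ovary, and no ovary library was analysed here.

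In the posterior system, Oskar protein assembles germ plasm at the rear of the oocyte and Nanos, made there, represses translation of hunchback RNA. In the dorsoventral system, Gurken from the oocyte patterns the follicle cells, a protease cascade outside the embryo activates the ligand Spätzle, and Toll signals through Tube and Pelle to free Dorsal from Cactus. The terminal system activates the receptor tyrosine kinase Torso at the egg poles, and a further set of RNA-binding proteins and adaptors carries these RNAs to their places and holds them silent. Sry-delta itself is a zinc finger transcription factor known for its part in maternal transcription of bicoid, the anterior determinant.

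A gene was called bound when the summit of a peak in the authors' optimal list, the 6318 peaks taken from both replicates, lay within 500 bp of any of its annotated start sites. By that rule 15 of the 31 members were bound (48.4%, exact 95% interval 30.2% to 66.9%), against 39.0% of all protein-coding genes, a share that lies inside the interval. The interval covers counting over genes only and tests nothing, since the genes were chosen with earlier results of these data known. The bound members included the top of the list and its tail: smg had a signal of 3808.7 and rank 38, and pip had 113.0 and rank 5778. Signal is the authors' own signal value for each peak, with 1 scale for each list. The optimal list ran from 99.8 to 7028.4 with a median of 238.5. The median over the bound members was 279.0, against 385.7 over all bound protein-coding genes.

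The sequences under the summits are shown for the strongest member (smg), for the Toll pathway genes cact, tub and pll, for nanos, and for bru1, whose summit carried the closest match to the Sry-delta consensus among these 6. They are read from the Release 6 genome (dm6) on the plus strand, within 100 bp of the summit and only as far as the nearest annotated UTR. Where the summit itself lay in a UTR, as for nanos and pll, the 25 bases around the CGATA nearest to the summit are shown. Capitals mark CGATA or its complement TATCG, the core of the DNA replication-related element (DRE, TATCGATA), the word GGTCACACT of the core promoter element Motif 1, and the stretch of bru1 that matches the Sry-delta consensus with 2 mismatches.
smg, chr3L:8998003-8998183: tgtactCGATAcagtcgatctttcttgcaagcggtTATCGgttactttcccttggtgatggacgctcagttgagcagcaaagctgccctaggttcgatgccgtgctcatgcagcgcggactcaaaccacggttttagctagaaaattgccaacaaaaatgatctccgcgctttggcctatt
cact, chr2L:16325711-16325911: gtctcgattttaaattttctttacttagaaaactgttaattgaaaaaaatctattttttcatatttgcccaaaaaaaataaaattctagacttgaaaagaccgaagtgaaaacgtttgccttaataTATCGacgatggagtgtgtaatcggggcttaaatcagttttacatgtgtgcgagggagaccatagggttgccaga
tub, chr3R:4387612-4387741: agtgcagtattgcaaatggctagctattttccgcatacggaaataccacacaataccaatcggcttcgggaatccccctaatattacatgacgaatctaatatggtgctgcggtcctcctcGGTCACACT
bru1, chr2L:12174866-12175003: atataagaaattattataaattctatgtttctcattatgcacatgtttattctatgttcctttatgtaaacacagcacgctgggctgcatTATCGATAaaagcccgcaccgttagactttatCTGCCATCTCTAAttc
nanos, chr3R:19156879-19156903: gttgccgcgcCGATAtcatgtgatg
pll, chr3R:27253490-27253514: aacgcatcgcTATCGctaattcttc
The bru1 stretch held a full DRE, which no other bound member had within 100 bp of its summit. In tub the Motif 1 word ended at the base before the start of the gene. The core CGATA lay 2 bp from the nanos summit, 5 bp from that of bru1, 28 bp from that of cact, 57 bp from that of pll and 63 bp from the nearer of a pair at smg.

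Of the 7 posterior and germ plasm genes, 4 were bound, and nanos and brat had the strongest summits of that group. At nanos, which encodes the translational repressor of the posterior, the signal was 859.0 in replicate 3 and 1099.1 in replicate 4, at ranks 310 and 289, and 1949.9 in the optimal list at rank 296. At brat, a repressor that acts with Nanos and Pumilio on hunchback RNA, it was 635.2 in replicate 3 and 989.2 in replicate 4, at ranks 536 and 372, and 1613.7 in the optimal list. Both genes stood near the top of each library's list, and nanos moved by fewer places between the libraries than brat did. The nanos peak (3R, 19156595 to 19157411) had its summit 345 bp upstream of nanos, inside the 5' UTR of the divergent gene CG11779. The brat peak (2L, 19133239 to 19134094) had its summit 148 bp upstream of 1 of 3 brat starts, in an intron of Polr1D, which encodes a subunit shared by RNA polymerases I and III.

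The germ cell genes followed at lower signal. At gcl, which encodes a ubiquitin ligase adaptor that promotes pole cell formation, the signal was 262.5 in replicate 3 and 423.6 in replicate 4, and 674.6 in the optimal list at rank 1287, with the summit 34 bp upstream (2R, 8724012 to 8724534). At pgc, whose short protein silences RNA polymerase II transcription in pole cells, the signal was 137.9 in replicate 3 and 100.6 in replicate 4, and 237.6 in the optimal list at rank 3179. This was 1 of 3 bound members whose signal was lower in replicate 4, and its summit lay 47 bp upstream of the internal one of 2 pgc starts (2R, 22331997 to 22332239). The other 3 posterior genes had pooled peaks at their starts that ranked after the last optimal peak. The start of pum, which encodes the RNA-binding partner of Nanos, had 78.5 in the pooled list at rank 7605. That of cad, which encodes a homeodomain protein whose RNA is translated toward the posterior, had 53.4 at rank 10235. At osk the pooled signal was 21.7, at rank 25318, with the summit 385 bp downstream of the start, and neither replicate list held a peak there. Of the members with a pooled peak, osk thus had the weakest. The strongest of the posterior group was counted for nanos, at a summit nearer to the start of CG11779.

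Among the 12 dorsoventral genes 5 were bound, and they included 3 of the 5 genes of Toll signalling within the embryo. Pelle, the kinase below Toll, is encoded by pll, where the signal was 300.3 in replicate 3 and 485.6 in replicate 4, and 781.4 in the optimal list at rank 1129 (3R, 27253097 to 27253666). At cact, which encodes the inhibitor that holds Dorsal in the cytoplasm, it was 279.1 in replicate 3 and 412.7 in replicate 4, and 687.9 in the optimal list at rank 1265, with all 4 cact starts within 500 bp of the summit (2L, 16325508 to 16326048). At tub, which encodes the adaptor between Toll and Pelle, it was 83.7 in replicate 3 and 153.7 in replicate 4, and 241.0 in the optimal list at rank 3132 (3R, 4387531 to 4387808). The peaks counted for the kinase and the inhibitor thus had similar signals in each library, both above that of the adaptor. The pll summit lay 263 bp from pll and 15 bp from the divergent start of TfIIA-L. Its signal therefore cannot be assigned to pll from these data. The receptor and the transcription factor at the ends of this chain had no optimal summit within 500 bp of a start. Tl, the receptor gene, had signals of 24.4 in replicate 3 and 21.7 in replicate 4 and a pooled rank of 10464, and its nearest optimal summit lay 67800 bp away at ball. For dl, the NF-kappaB-type factor, they were 47.4 in replicate 3 and 70 in replicate 4, with a pooled signal of 91.8 at rank 6720. In replicates 3 and 4 the highest peak lay 62 bp and 375 bp downstream of the Tl start. At dl it lay 100 bp and 416 bp downstream of a start, so these values are not of 1 shared summit. An optimal summit of 102.8, at rank 6192, lay 661 bp from a dl start, and dl counted as bound within 1000 bp, by overlap of the peak with the window, or with either library left out.

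The cascade that acts outside the embryo was counted as 6 genes, with pip included although its enzyme works in follicle cells. Of these 6, 2 were bound, both at low signal. At ea, which encodes the protease that cleaves Spätzle, the signal was 82.9 in replicate 3 and 74 in replicate 4, and 157.0 in the optimal list at rank 4432. At pip, which encodes a sulfotransferase of the ventral follicle cells, it was 46 in replicate 3 and 65.2 in replicate 4, and 113.0 in the optimal list. The ligand gene spz, the protease genes snk and gd, and ndl, a protease gene of the follicle cells, had no peak within 500 bp of a start even among the 30000 pooled peaks. Their nearest optimal summits were 42398 bp away for spz, 8414 bp for snk, 5710 bp for gd and 50260 bp for ndl. The 5 Toll signalling genes all had pooled peaks, as did 2 of the 6 cascade genes and 58.1% of all protein-coding genes, and no test was made of these small numbers. For grk, the ligand that the oocyte sends to the follicle cells, the signal was 37.4 in replicate 3 and 46.9 in replicate 4, with a pooled rank of 7570.

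Torso was the 1 bound gene of the 5 in the terminal system. At tor the signal was 355.0 in replicate 3 and 421.8 in replicate 4, at ranks 1102 and 1199, and 766.4 in the optimal list at rank 1147 (2R, 7709337 to 7709791). The genes that supply its ligand were not bound. Neither trk, which encodes the ligand, nor fs(1)M3, an eggshell gene needed for terminal signalling, had a peak at its start in any of the 4 lists, and the nearest optimal summits were 5265 bp away at Utx and 1685 bp away at Grip. At tsl, which encodes the perforin-like protein of the pole follicle cells, the pooled rank was 18304, and an optimal summit of signal 128.2 lay inside the gene, 907 bp from its start. A second eggshell gene, fs(1)N, differed between the libraries. Replicate 3 listed a peak there with a signal of 131.2 at rank 2584 (X, 1322332 to 1322548), and neither replicate 4 nor the pooled list held any peak that overlapped it. Among the 2584 peaks of replicate 3 up to that rank it was the only 1 with no overlap in both other lists.

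The regulators of oocyte RNA had 5 bound genes of 7. The translational repressor Smaug, which silences nanos RNA outside the germ plasm, is encoded by smg, where the signal was 1733.1 in replicate 3 and 2102.0 in replicate 4, at ranks 38 and 42 (3L, 8997654 to 8998442). The next member in the optimal list was nanos, at rank 296. BicD and egl encode the adaptor pair that links localised RNAs to dynein. BicD had 98.9 in replicate 3 and 183.7 in replicate 4, and 279.0 in the optimal list at rank 2767. For egl the values were 81.7 in replicate 3 and 83.8 in replicate 4, and 167.9 in the optimal list at rank 4209. In orb, which encodes a cytoplasmic polyadenylation factor, 1 of 4 starts was bound, with 52.4 in replicate 3 and 129.9 in replicate 4 and an optimal rank of 3938. In bru1, which encodes a repressor of oskar translation, 1 of 6 starts was bound, with 68 in replicate 3 and 49.8 in replicate 4 and an optimal rank of 5509. The start of cup, which encodes an eIF4E-binding repressor, had 47.4 in replicate 3 and 45.1 in replicate 4, at a pooled rank of 6828. Those summits lay apart, 122 bp upstream of a start in replicate 3 and 103 bp downstream in replicate 4. BicC, which encodes a protein that recruits the deadenylase to RNAs, was the unbound member farthest from any listed peak. Its nearest optimal summit was 130766 bp from a start and its nearest pooled summit 128419 bp away. Whether peaks could be called in that stretch was not tested.

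**Figure D1:**
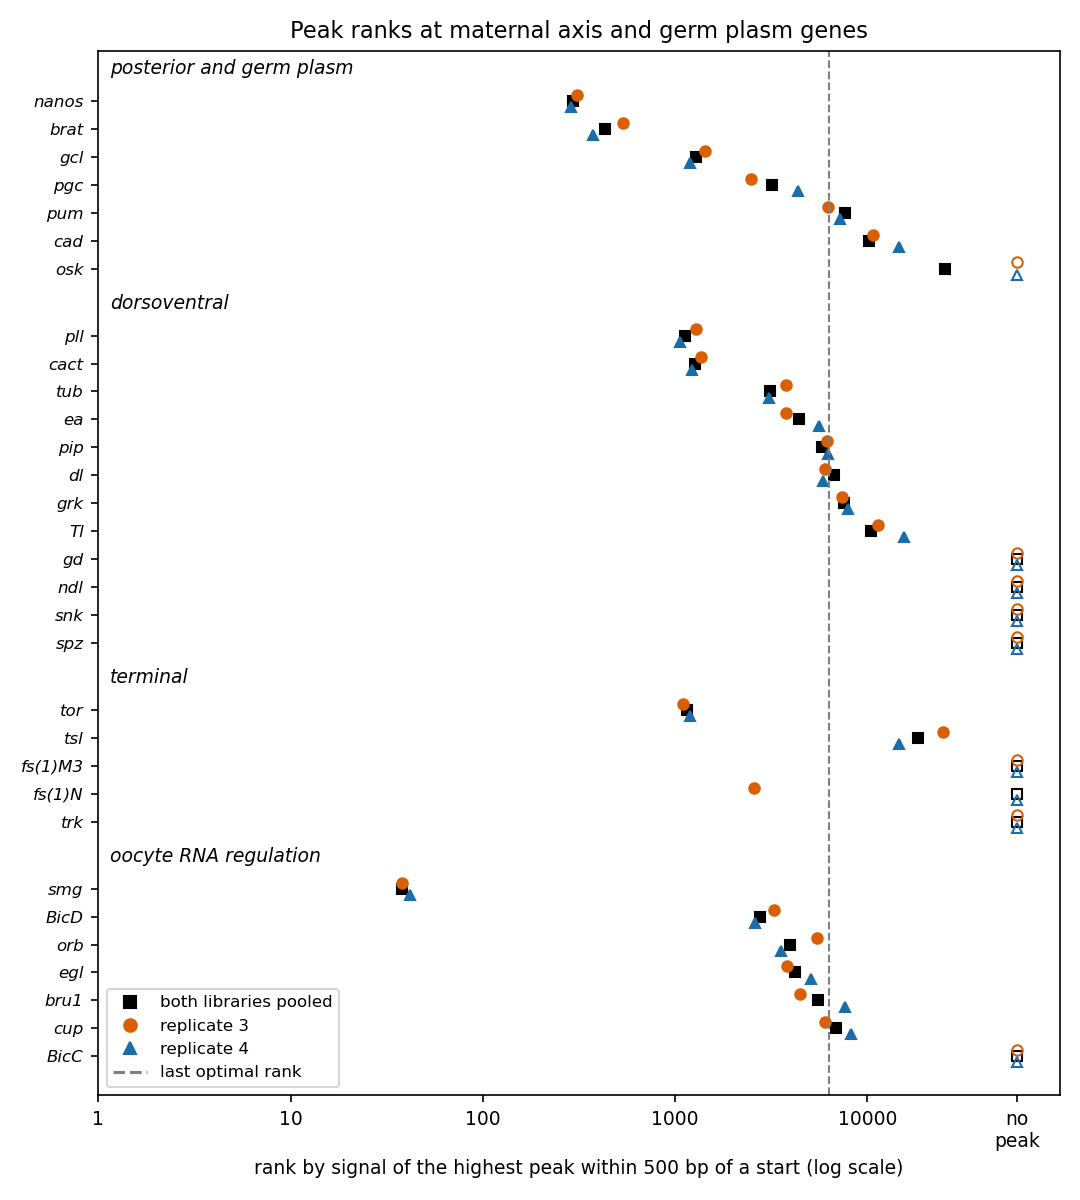
Rank by signal (log axis, 1 is the strongest) of the highest peak within 500 bp of a start of each of the 31 members, in the pooled, replicate 3 and replicate 4 lists, with open symbols for no peak and the dashed line at the last optimal rank of 6318. The symbols of smg lie at ranks 38 to 42, those of nanos at ranks 289 to 310, and 7 members have open symbols in all 3 lists, while fs(1)N has 1 filled symbol, from replicate 3.

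The boundary between bound and unbound members was narrow in signal. Just inside it stood bru1 with 120.1 and pip with 113.0, and just outside stood dl with a pooled signal of 91.8 and cup with 89.6. The optimal peaks were exactly the 6318 pooled peaks of highest signal, so the boundary is a cut in 1 ranking. All 8 members with a pooled peak and no optimal one lay below it (osk, pum, cad, Tl, dl, grk, tsl and cup). With the pooled list in place of the optimal one 23 of 31 members had a summit (74.2%), against 58.1% of protein-coding genes. In the replicate 3 list 23 members had one, against 58.4%, and in the replicate 4 list 22 members did, against 58.3%. By group the pooled list held 7 of 7 posterior genes, 8 of 12 dorsoventral, 2 of 5 terminal and 6 of 7 oocyte RNA genes.

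**Figure D2:**
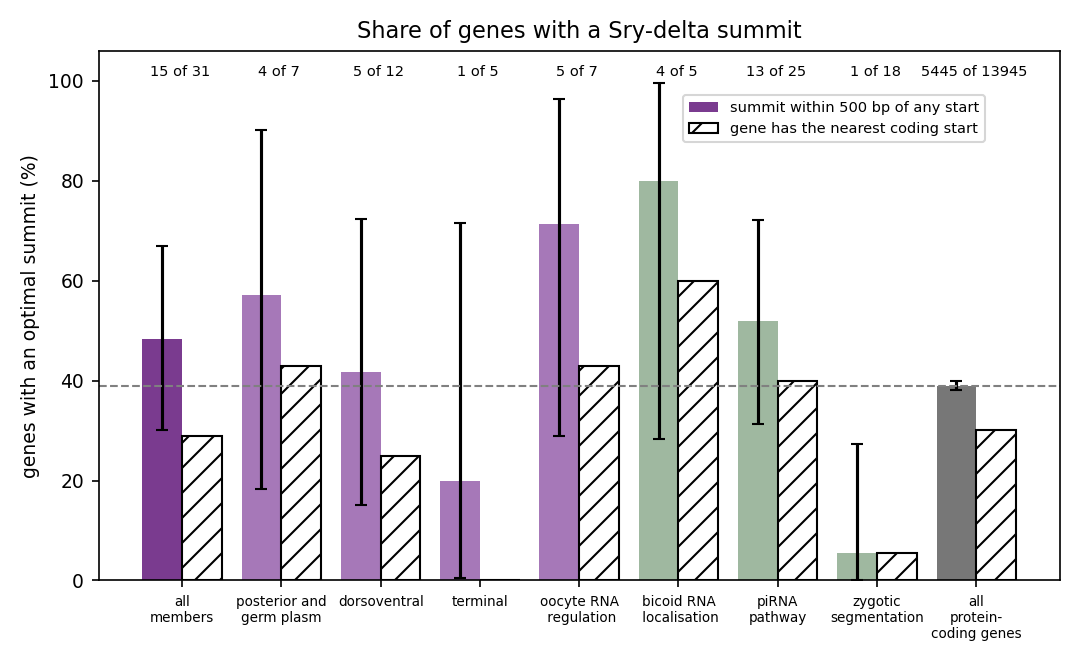
Percent of genes with an optimal summit within 500 bp of any start (filled bars, with exact 95% intervals over genes and counts above) and percent that have the coding start nearest to such a summit (hatched bars), for the members, their 4 groups, 3 other lists and all protein-coding genes, whose 39.0% is the dashed line. The intervals of all 4 groups include that line. The zygotic segmentation genes have the lowest filled bar, at 5.56%. The lists were chosen with results of these data known, so no interval is a test of a list.

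In both libraries smg, nanos and brat had the highest signals of the bound members, in that order. Further down the order changed: orb was below pgc in replicate 3 (52.4 and 137.9) and above it in replicate 4 (129.9 and 100.6). The optimal list was taken from both libraries, so some agreement between them was built in. The median log2 ratio of replicate 4 to replicate 3 was 0.50 over the bound members, against 0.48 over the 6296 optimal peaks with a counterpart in each library, whose SD was 0.65. Of the 15, 12 lay within 1 SD of the median of all optimal peaks. The share of all optimal peaks within that range was not counted, so the 12 cannot be called many or few. The ratio was highest at orb (1.31) and lowest at pgc (−0.46) and bru1 (−0.45). With ea (−0.16) these were the 3 bound members below 0, where 13.1% of all optimal peaks lay. Read totals are unknown, so a ratio is read against the median of all optimal peaks.

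**Figure D3:**
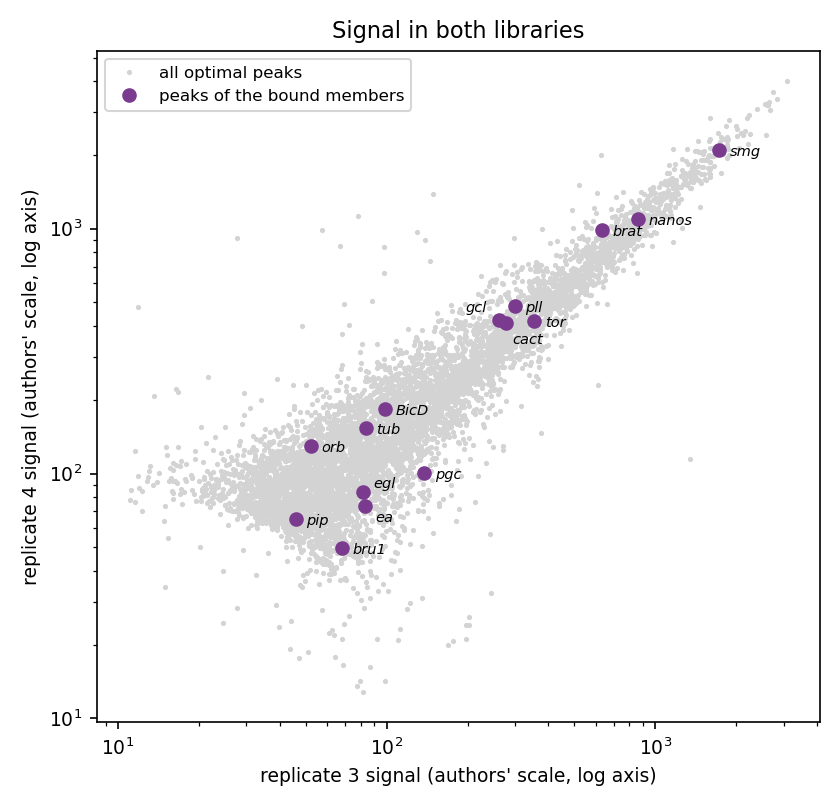
Signal in replicate 4 against signal in replicate 3 (both log axes, authors' scale) for all optimal peaks with a counterpart in each (grey) and for the peaks of the 15 bound members (purple). The members run along the grey cloud from smg at the top to pip and bru1 near the bottom, with pgc and bru1 at its lower edge and orb above its middle.

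Measured from the nearest of a member's own starts, each of the 15 summits lay upstream, against 88.1% of bound protein-coding genes, at a median distance of 148 bp, against 66 bp. The cact and pgc summits also lay in introns of cact and pgc, downstream of another start of the same gene. The distance was 30 bp at tub and 429 bp at ea. Most of these summits also lay within 500 bp of another gene's start. A second protein-coding start, on the opposite strand in each case, lay within 500 bp of the same summit for 10 of the 15 (66.7%), against 58.7% of bound protein-coding genes. A non-coding RNA, lncRNA:CR43356, shared that of bru1. The member's own start was the nearest coding start for 9 of the 15 (60%), against 71.6% of bound protein-coding genes. For 6 members the other gene's start was the nearer one. The pll summit was 15 bp from the start of TfIIA-L, which encodes a general transcription factor subunit, and 263 bp from that of pll. That of orb was 40 bp from Cdc16, which encodes a subunit of the anaphase-promoting complex, and 305 bp from orb. For ea it was 31 bp from CG6236 and 429 bp from ea, and for nanos 81 bp from CG11779 and 345 bp from nanos. At smg the summit was 81 bp from CG5087 and 114 bp from smg, and at tor 321 bp from CG1941 and 368 bp from tor. At pgc the starts of pgc and T3dh lay 47 bp and 52 bp from the summit, nearly level. Counted only where the member had the nearest coding start, 9 of 31 members were bound (29%), against 30.2% of protein-coding genes. The tor summit was then no longer counted, so none of the 5 terminal genes was bound, and 3 each of the posterior, dorsoventral and oocyte RNA genes were. A peak between divergent starts cannot be assigned to either gene from these data.

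**Figure D4:**
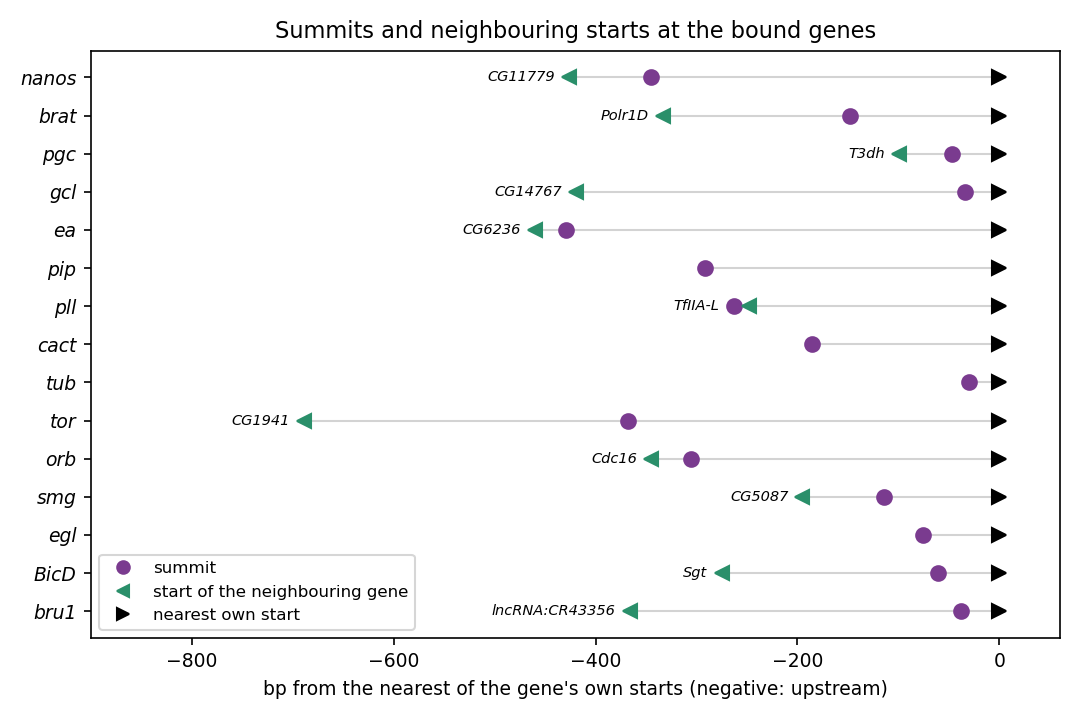
Position of the summit (purple) and of the start of the other gene within 500 bp of it (green, named), in bp from the nearest of the member's own starts (black), for the 15 bound members. The summit is upstream of that start in all 15, from 30 bp at tub to 429 bp at ea, and cact, tub, pip and egl have no second gene.

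Members with a divergent neighbour were bound more often than those without. Of the 16 members with a protein-coding start within 1000 bp upstream on the opposite strand, 12 were bound (75%), and of the 15 without one, 3 were (20%). The shares over all protein-coding genes were 68.9% of 5052 with such a neighbour and 22.1% of 8893 without, so the members stood near the background in both classes. The 3 bound members without one were tub, pip and bru1. The 4 unbound members with one were snk beside CG11670, ndl beside Rexo5, fs(1)N beside DAAM and cup beside CG13771.

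**Figure D5:**
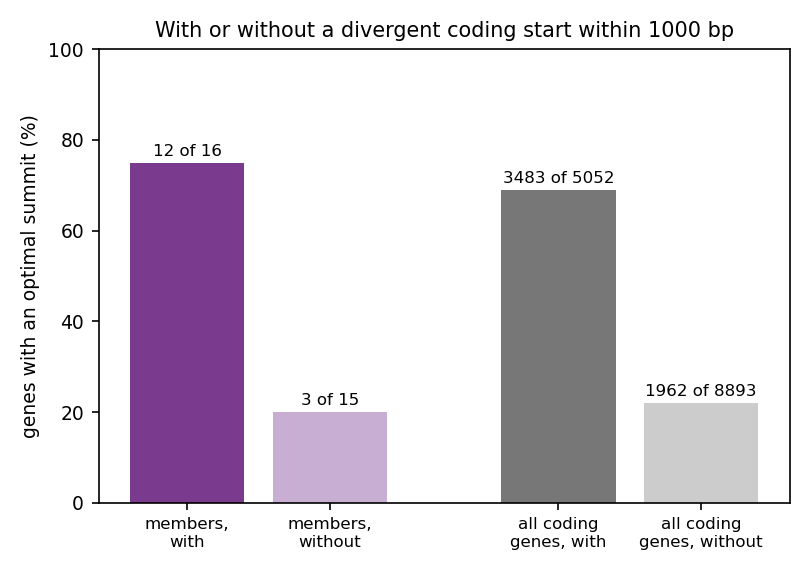
Percent of genes bound, with and without a protein-coding start on the opposite strand within 1000 bp upstream, for the members (purple) and all protein-coding genes (grey), with counts above the bars. The bars with a neighbour stand at 75% and 68.9%, and those without at 20% and 22.1%.

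Several members held optimal summits inside the gene and more than 500 bp from their own starts. In pum, introns held summits with signals of 227.5 and 145.5, at 2435 bp and 1819 bp from a start, although its starts were not bound. The intron of brat held a second strong summit, of 404.6, at 712 bp from a start, and a weaker one of 129.7. BicD introns held 223.8 and 122.2, and an intron of cad held 100.4 near the end of the optimal list. Of the 3 summits inside cup, the strongest, of 391.2, lay 31 bp from the start of Galt, a further one, of 113.7, lay 236 bp from Galt, and that of 240.6 lay 102 bp from CG34310. These summits of cup therefore stood at starts of other genes that overlap it.

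Short words were counted within 100 bp of the summits, on both strands. CGATA occurred at 9 of 15 member summits (60%), against 53.6% of all optimal summits, and the full DRE TATCGATA at 1 (6.67%), against 15%. The overlapping word CTATCGA was found at 2 (13.3%), against 19%. GGTCACACT occurred at 3, namely gcl, tub and egl (20%), against 6.92%. TATAAA occurred at 6 (40%), against 26.1%, GAGAGAG at 1, against 3.05%, and the Zelda word CAGGTAG at none, against 0.807%. The in vitro consensus of Sry-delta was matched with at most 2 mismatches at 2 summits, tor and bru1 (13.3%), against 6.7%. The tor and bru1 matches lay 20 bp and 28 bp from the summit, both on the minus strand. With 15 summits, 1 summit more or fewer moves a share by 6.67 percentage points, and a match is a description of the letters and not a measured site.

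In the 300 bp from 250 bp upstream to 50 bp downstream of any start, CGATA was present for 9 of the 15 bound members and 4 of the 16 unbound ones. The shares among all protein-coding genes were 73.8% of bound genes and 39.8% of unbound ones, and genes with more starts had more sequence searched. The full DRE was present for 3 bound members (nanos, brat and bru1) and for 1 unbound one, cad. Across all protein-coding genes 10.2% had it, and 88.8% of those were bound, so cad was among the minority that carried the word with no optimal summit at a start.

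Other genes of the same pathways were bound in larger shares than the members, except the target genes at the end of the dorsoventral pathway. The share over all protein-coding genes was 39.0%. In the posterior pathway 13 of 17 other genes were bound, led by mago (1725.0), tud (1680.4), tsu (1348.7) and Rab11 (1320.0), where mago and tsu encode exon junction proteins needed to localise oskar RNA and tud a scaffold of the germ plasm. In the dorsoventral pathway 10 of 11 were, led by cactin (1298.0), fs(1)K10 (648.4), wek (359.4) and Egfr (344.6), the last being the receptor for Gurken. Of 12 zygotic target genes of Dorsal 1 was bound, sog (122.4). Of 14 other genes of the terminal pathway 8 were, led by Ras85D (3560.1, rank 50), Raf (755.8), gro (749.0) and csw (414.6), and the terminal target genes tll and hkb were not. Among other regulators of oocyte RNA 13 of 17 were bound, led by eIF4E1 (2110.8), enc (1822.8), Pop2 (1209.5) and yps (1199.1). The highest signals of the other dorsoventral and terminal genes exceeded those of the members pll (781.4) and tor (766.4), while nanos (1949.9) and smg (3808.7) exceeded all other genes of their pathways. Counted by nearest coding start, the shares were 70.6% (posterior), 90.9% (dorsoventral), 50% (terminal) and 58.8% (oocyte RNA). That share was 30.2% over all protein-coding genes. The summits of mago, tud, cactin, fs(1)K10, Egfr, Ras85D and Pop2 also lay within 500 bp of another gene's start. Those of the members nanos, smg, pll and tor did too, and each was nearer to the other gene's start. Their signals therefore cannot be assigned to these members from these data. These lists were chosen with results of these data known, and their counts are descriptions.

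In 3 lists like the members, the share bound differed widely, beside 39.0% of all protein-coding genes. The genes for localisation of bicoid RNA had 4 of 5 bound, with Vps36 at 3851.7, exu at 1640.1, bcd itself at 480.2 and stau at 172.5. Of 25 genes of the piRNA pathway, which silences transposons in the germ line, 13 were bound (52%), led by tej (1089.7), spn-E (749.7), Panx (724.3) and shu (699.9). Of 18 zygotic segmentation genes, the targets of the maternal systems, 1 was (5.56%), oc (103.8, rank 6143). The members' 48.4% lay close to the piRNA share and above that of the segmentation genes, with no test made between these lists. Counted by nearest coding start, the shares were 60% for bicoid RNA localisation, 40% for piRNA and 5.56% for segmentation, against 30.2% of protein-coding genes. The summits of Vps36, exu, spn-E and Panx also lay within 500 bp of another gene's start.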

How the data were processed

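ChIP-seq peak lists of 2 libraries (biological replicates 3 and 4 of 1 group) were used, in build dm6. Per the deposited README files, the authors called each library's list and the pooled list against a control and took the optimal list from them by the irreproducible discovery rate. The caller, the aligner and their versions are not given in these sources. The deposited signal value was used as the authors gave it. The deposited −log10 q value was not used to rank, because it was at its upper limit for the optimal peaks. Read depth is unknown. Lists in build dm3 were not used.

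The members, groups and comparison lists were chosen with earlier results of these data known, so no list was tested. All members were named, with genes sharing their summits and up to 4 bound genes per other list. Starts came from Ensembl release 115 (FlyBase 6.54) and sequence from RefSeq's Release 6 genome, whose chromosome lengths held all peaks. Coordinates are 1-based. Replicate values are of the overlapping replicate peak with the nearest summit, or, for unbound members, of the highest peak within the window. The dropped symbol wind is a RefSeq synonym of wbl, which was not counted and had a pooled signal of 24.6 at rank 22111. Intervals are exact Clopper-Pearson. Counting was tested on simulated data. Python 3.11.15, numpy 2.4.6, pandas 2.3.3, scipy 1.17.1 and matplotlib 3.10.9 were used. Alternatives changed the window, starts, overlap, peak set, replicate and mismatches.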

Additional observations from a re-analysis of the deposited data

How the results depend on the processing

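The count of 15 bound members was 15 with starts of protein-coding transcripts only and 15 with 1 summit per region. It was 16 with any overlap of the peak, where dl was added. Within 1000 bp it was 17 (42% of protein-coding genes), where dl and tsl were added. It moved to 9 within 250 bp (2 dorsoventral, 0 terminal; 34.5% of protein-coding genes), where nanos, pll, ea, pip, tor and orb were lost. With only the optimal peaks above the median signal it was 9 (3 dorsoventral, 2 oocyte RNA; 26.5%). With the pooled list it was 23 (7 posterior, 8 dorsoventral, 2 terminal). Counting only genes with the nearest coding start, an alternative chosen after seeing the data, gave 9 (3 dorsoventral, 0 terminal, 3 oocyte RNA). Within 1000 bp the terminal count was 2. When either library was left out, as many peaks of the other were taken as the optimal list holds. The count then ranged from 15 to 19. By group it was 4 to 5 posterior, 6 dorsoventral in each case, 1 to 2 terminal and 4 to 6 oocyte RNA genes. The share of protein-coding genes bound was 38.6% without replicate 3 and 38.5% without replicate 4. Without replicate 3, bru1 was lost and dl gained. Without replicate 4, pum, dl, fs(1)N and cup were gained, and the terminal count of 2 rests on the fs(1)N peak of replicate 3 alone. The median signal percentile of the bound members was 56.2 within the optimal list, and 48.4 to 58.6 with a library left out. The DRE count of 1 became 9 with CGATA in its place, and the 2 matches to the Sry-delta consensus became 0 with at most 1 mismatch and 5 with at most 3. The cause of these moves was not tested beyond the stricter or wider rule itself. Depth is unknown, so a missing peak says only that none was listed among 30000. No paired analysis was possible because there is 1 group and no contrast.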
